A study of Mus musculus with 10 samples.

Results

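The genes described here are the replication-dependent histone genes of the mouse, the symbols beginning Hist1h, Hist2h, Hist3h or Hist4h in a table of histone H3 methylation around transcription start sites (TSS) in developing retina. They were chosen by name alone, ignoring letter case and the number that marks further entries of a symbol, and 70 of 25152 entries matched. Where a symbol had several entries, the one whose 8 values added up to most was kept, which left 64 genes of 20045 symbols. They comprised 6 linker histone H1 genes and 17 H2A, 17 H2B, 12 H3 and 12 H4 genes. The Hist1 cluster on chromosome 13 held 50 of them, the Hist2 cluster on chromosome 3 held 10, the Hist3 locus on chromosome 11 held 3, and Hist4h4 lay alone on chromosome 6.

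Replication-dependent histone genes supply the protein around which newly copied DNA is wrapped, and their transcription is coupled to S phase. Core histones H2A, H2B, H3 and H4 form the nucleosome, and linker histone H1 binds where DNA enters and leaves it. Most of their messages carry no poly(A) tail and end just after a short stem-loop that is bound by the stem-loop binding protein. In the retina the last progenitors leave the cell cycle within the first postnatal weeks, after which histone is supplied to chromatin mainly by replication-independent variants such as those of the H3f3 genes. Dimethylation of lysine 4 of histone H3 (H3K4me2) is found at active and poised promoters, and trimethylation of lysine 27 (H3K27me3) is laid down by Polycomb complexes at repressed genes.

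Chromatin of whole retinas was immunoprecipitated for H3K4me2 or H3K27me3 at E17.5, PN1, PN7 and PN15 (embryonic and postnatal days) and sequenced, with 1 library for each mark and stage. Nuclei of at least 20 retinas were pooled for a stage, so that every value is an average over animals and over all retinal cell types. The strain field reads Pde6b (rd1/rd1) mutant mice for every library, a line that loses its rods, whereas the study's methods describe C57BL/6j mice at these stages and rd1/rd1 mice as the control lacking rods. Rod markers were in place at PN15 in these libraries, where the median H3K4me2 of 7 of them was 105 against 11 at E17.5. A value is the normalised occupancy, the number of reads within 2.5 kb on either side of the TSS after scaling to the mapped reads of the library and rounding. With 1 library a condition no replicate error could be had and no test was made. The intervals given are exact 95% Poisson intervals that count 1 unit as 1 read. They cover counting error only, and are wide rather than narrow, because no library skipped a whole number below 110, so that 1 read was worth about 1 unit or less.

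The stem-loop was looked for after the stop codon in the genome sequence (mm9), as a pattern of 16 bases with 5 positions left free. Of 64 genes, 62 had an annotated coding sequence, and in 57 of those the pattern was found, 21 to 58 bases after the stop codon. Every match was a perfect stem of 6 base pairs closing a loop of 4 bases. The genes with a coding sequence and no such match were Hist1h2an, Hist1h3g, Hist1h4a, Hist2h2bb and Hist2h2be. Hist2h3c2 and Hist3h2bb are annotated without a coding sequence in this build. The stems of 36 genes had the same 16 letters, and the 11 H4 stems were written with other letters in the stem. The following are shown because the results below turn on these genes, with the stem and loop in capitals and 5 flanking bases on each side.

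Hist1h1c (H1, chr13:23831381-23831396, plus strand): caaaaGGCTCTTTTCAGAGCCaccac
Hist1h1t (testis H1, chr13:23788394-23788409, plus strand): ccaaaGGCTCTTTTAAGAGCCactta
Hist1h2ac (H2A, chr13:23775346-23775361, minus strand): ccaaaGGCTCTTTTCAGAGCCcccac
Hist1h2aa (testis H2A, chr13:24026760-24026775, plus strand): aaaaaGGCTCTTTTCAGAGCCacctt
Hist1h2ba (testis H2B, chr13:24025599-24025614, minus strand): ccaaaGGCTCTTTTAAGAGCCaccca
Hist3h2a (H2A, chr11:58768674-58768689, plus strand): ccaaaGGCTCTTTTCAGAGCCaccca
Hist3h2ba (H2B, chr11:58762851-58762866, plus strand): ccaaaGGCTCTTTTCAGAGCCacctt
Hist1h4h (H4, chr13:23623327-23623342, plus strand): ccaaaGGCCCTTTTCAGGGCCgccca
Hist1h4b (H4, chr13:23849235-23849250, plus strand): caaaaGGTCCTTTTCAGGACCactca

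Hist3h2a and Hist3h2ba had the same stem and loop as Hist1h1c, Hist1h2ac and Hist1h2aa. Hist1h1t and Hist1h2ba shared a stem with another loop letter, and Hist1h4b was 1 of 2 genes with a stem of its own kind.

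Promoters of 300 bases (250 before to 50 after the start) were taken from RefSeq (GRCm38.p6), where 58 of 64 genes had one, and were searched on both strands for 4 short motifs. CCAAT, the letters of the CCAAT box bound by NF-Y, was found in 50 of 58 promoters (86.2%) against 37.4% of 32851 promoters of all genes. It was in all 6 H1, 17 H2A, 14 H2B and 10 H3 promoters but in 3 of 11 H4 promoters. The TATA box motif (letters TATAAA) was found in 34 of 58 (58.6%) against 13.6%. The octamer ATTTGCAT, which Oct-1 binds, was found in 7 of 17 H2A and 6 of 14 H2B promoters and in none of the H1, H3 or H4 promoters, against 1.74% of all promoters. TTTNGCGC, an E2F-like site, was found in 6 H2A and 5 H2B promoters and again in none of the other classes, against 1.38% of all. Divergent H2A and H2B genes start close together, so that their promoters overlap and a match can be counted in both. None of the 4 motifs contains another.

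These promoters are shown because their genes differed most in the marks, with every match in capitals. Their positions are those of the only exact match of the 300 bases in mm9.

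Hist3h2a (chr11:58767937-58768236, plus strand; H3K27me3 gained after PN1): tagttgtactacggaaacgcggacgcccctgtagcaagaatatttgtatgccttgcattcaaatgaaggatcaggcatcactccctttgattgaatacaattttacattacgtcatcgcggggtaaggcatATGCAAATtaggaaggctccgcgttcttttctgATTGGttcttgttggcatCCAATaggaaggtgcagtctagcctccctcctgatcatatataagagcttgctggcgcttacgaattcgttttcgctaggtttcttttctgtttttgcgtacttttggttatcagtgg
Hist3h2ba (chr11:58762163-58762462, plus strand; H3K27me3 gained after PN1): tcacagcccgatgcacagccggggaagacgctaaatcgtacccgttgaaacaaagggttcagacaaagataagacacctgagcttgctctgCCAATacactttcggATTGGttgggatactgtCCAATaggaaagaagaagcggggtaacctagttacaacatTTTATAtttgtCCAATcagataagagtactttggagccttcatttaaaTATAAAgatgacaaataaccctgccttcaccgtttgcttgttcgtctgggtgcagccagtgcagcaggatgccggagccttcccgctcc
Hist1h1c (chr13:23830426-23830725, plus strand; largest rise of H3K4me2 among the 64 genes): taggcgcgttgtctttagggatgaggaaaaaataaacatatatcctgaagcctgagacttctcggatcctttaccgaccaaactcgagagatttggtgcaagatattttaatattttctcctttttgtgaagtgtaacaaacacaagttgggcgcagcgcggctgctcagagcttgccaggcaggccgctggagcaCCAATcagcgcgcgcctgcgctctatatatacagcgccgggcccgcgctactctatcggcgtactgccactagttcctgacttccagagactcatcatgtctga
Hist1h2ac (chr13:23775779-23776078, minus strand; low H3K4me2 at PN7 and high at PN15): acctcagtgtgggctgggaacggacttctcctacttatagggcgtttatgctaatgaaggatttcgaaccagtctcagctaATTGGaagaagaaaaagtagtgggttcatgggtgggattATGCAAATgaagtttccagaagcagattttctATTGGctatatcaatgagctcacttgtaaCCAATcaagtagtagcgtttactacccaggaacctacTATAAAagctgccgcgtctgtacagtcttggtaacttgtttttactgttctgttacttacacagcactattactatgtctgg
Hist1h2aa (chr13:24026056-24026355, plus strand; little of either mark): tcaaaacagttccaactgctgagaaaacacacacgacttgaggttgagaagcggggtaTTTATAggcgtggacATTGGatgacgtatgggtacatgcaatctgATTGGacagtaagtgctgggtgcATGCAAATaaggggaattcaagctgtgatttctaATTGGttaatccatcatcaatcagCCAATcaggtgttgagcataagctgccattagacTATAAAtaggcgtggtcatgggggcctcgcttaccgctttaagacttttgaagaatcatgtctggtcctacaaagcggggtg

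The testis gene Hist1h2aa, which carried almost no H3K4me2, had an octamer and CCAAT and TATAAA matches as did Hist1h2ac, which carried much of it. Hist1h1c had 1 CCAAT match and no other. Hist3h2a had CCAAT and octamer matches, and Hist3h2ba had CCAAT and TATAAA matches. A match is no more than these letters in this window.

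The genes lie close together, and many values are not independent. Another member's TSS fell inside the window of 47 of 64 genes, and the 64 genes formed 38 groups linked by TSS within 2.5 kb of each other. The 11 divergent H2A and H2B pairs had starts 173 to 306 bp apart, and the H3K4me2 values of the genes of such a pair differed by at most 6. These pairs are in effect 1 measurement each. Near-identical copies add a second limit, because per the methods reads that map to several places were removed. Of all 32-base words in a member's window, a median of 86.2% occurred at no other place in the genome. The share was 1.67% at Hist1h2ao and 3.06% at Hist1h4m, and 9 genes were under 70%. Even so, from E17.5 to PN15 Hist1h2ao read 75, 68, 3 and 111 for H3K4me2, and Hist1h4m 62, 57, 4 and 107. The 9 genes had medians of 83, 63, 9 and 109, against 69, 47, 21.5 and 72 in windows with at least 90%. Whether reads from copies were handled alike in every library was not tested. The 6 members with several entries in the table were Hist1h2ao, Hist1h2be, Hist1h4m, Hist2h2aa1, Hist2h2aa2 and Hist2h3c1. The 2 entries of Hist1h2ao read 75 and 100 at E17.5 and 111 and 97 at PN15 for H3K4me2, which shows the size of this uncertainty.

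**Figure D1:**
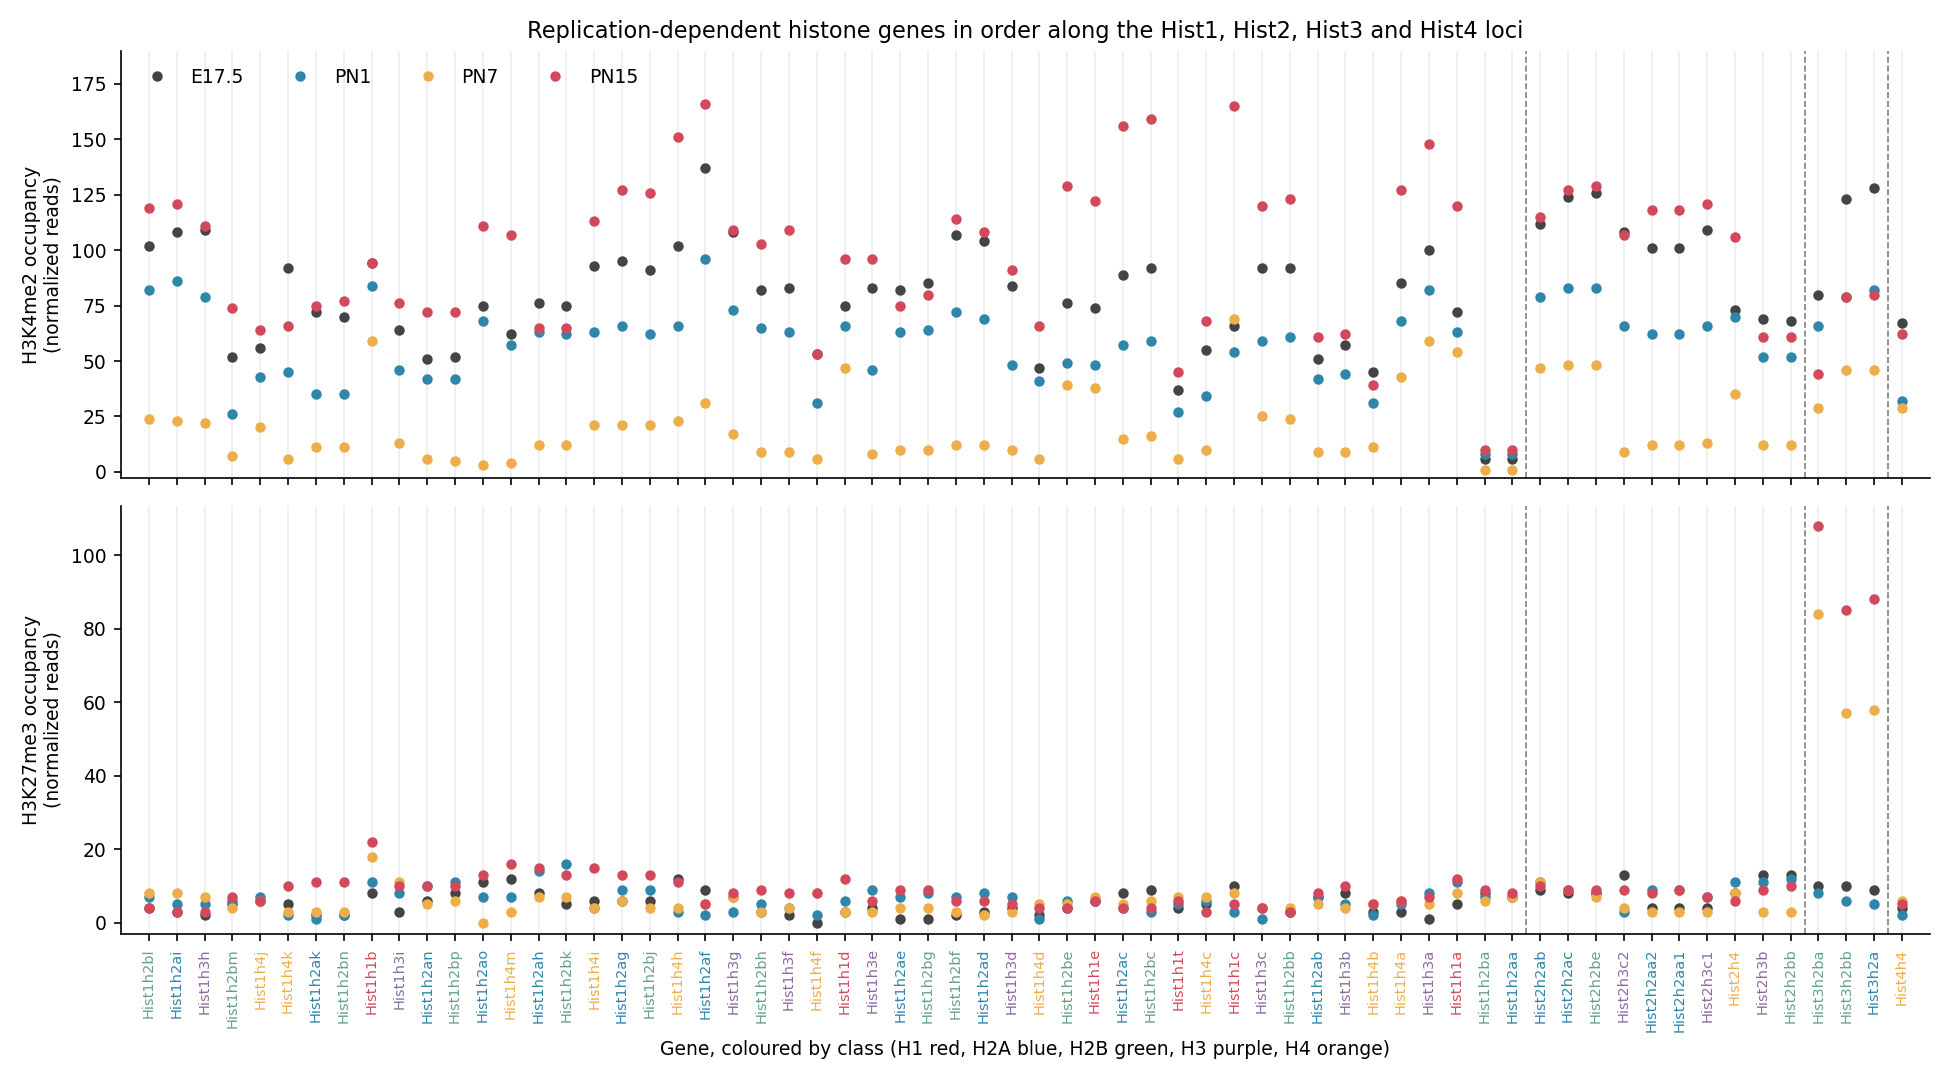
Normalised occupancy of H3K4me2 (top) and H3K27me3 (bottom) at the 64 genes in order along the Hist1, Hist2, Hist3 and Hist4 loci (dashed lines between loci), 1 point per stage, gene names coloured by histone class. The PN7 points of H3K4me2 lie below the others at most genes but not at Hist1h1c, and H3K27me3 rises above 30 at the 3 Hist3 genes alone.

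H3K4me2 was high at nearly all replication-dependent histone genes at E17.5, PN1 and PN15, early and late in the period examined. From E17.5 through PN1 and PN7 to PN15 their medians were 82.5, 62, 12.5 and 104.5, against 41, 27, 24 and 42 over all symbols. Above the median of all symbols lay 61, 60, 18 and 61 of the 64 genes in the same order. The histone genes thus stood above the typical gene at 3 stages and below it at PN7.

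Olfactory receptor genes served as a measure of background, since they are silent in retina. The 95th percentile of their 1047 symbols was 4, 8, 1 and 7 in the H3K4me2 libraries from E17.5 to PN15. All 64 histone genes exceeded it at E17.5 and PN15, and 62 did so at PN1 and at PN7, where Hist1h2aa and Hist1h2ba did not. The share of all symbols above this level was 77.2%, 72.0%, 72.1% and 70.9% in stage order.

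The testis forms were the exception. Hist1h2aa and Hist1h2ba, which encode the H2A and H2B of spermatogenic cells, share 1 window at the end of the Hist1 cluster and each read 6, 8, 1 and 10 for H3K4me2. They were the lowest of their classes at every stage. Hist1h1t, the linker histone of spermatocytes, lay between them and the other H1 genes with 37 (26.1 to 51.0), 27 (17.8 to 39.3), 6 (2.20 to 13.1) and 45 (32.8 to 60.2). H3K27me3 at these genes was between 4 and 9 in all libraries, as low as at most other histone genes. The H2A and H2B pair thus had little of either mark, whereas H3K4me2 at Hist1h1t was above the olfactory receptor level at every stage. Their windows were mostly single copy, with 94.1% of words found at no other place for the H2A and H2B pair and 96.6% for Hist1h1t.

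Among the core classes, H4 genes carried less H3K4me2 than the others at E17.5, PN1 and PN15. The E17.5 medians were 73 for H1, 95 for H2A, 82 for H2B, 88 for H3 and 64.5 for H4, and at PN15 they were 108, 111, 80, 108 and 67 in the same order. The classes overlapped widely. The genes named next had the highest or lowest mean over the 4 stages in their class, and the order differed at single stages. Hist1h4h reached 102, 66, 23 and 151, above most H2A genes, whereas Hist1h4b, the H4 gene with the lowest mean, read 45, 31, 11 and 39. In H2A the highest mean was that of Hist1h2af with 137 (115 to 162), 96 (77.8 to 117), 31 (21.1 to 44.0) and 166 (142 to 193). The H2B gene with the highest mean was Hist2h2be, described in olfactory neurons, with 126, 83, 48 and 129. In H3 the highest mean was that of Hist1h3a with 100, 82, 59 and 148, and the lowest that of Hist1h3b with 57, 44, 9 and 62.

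**Figure D2:**
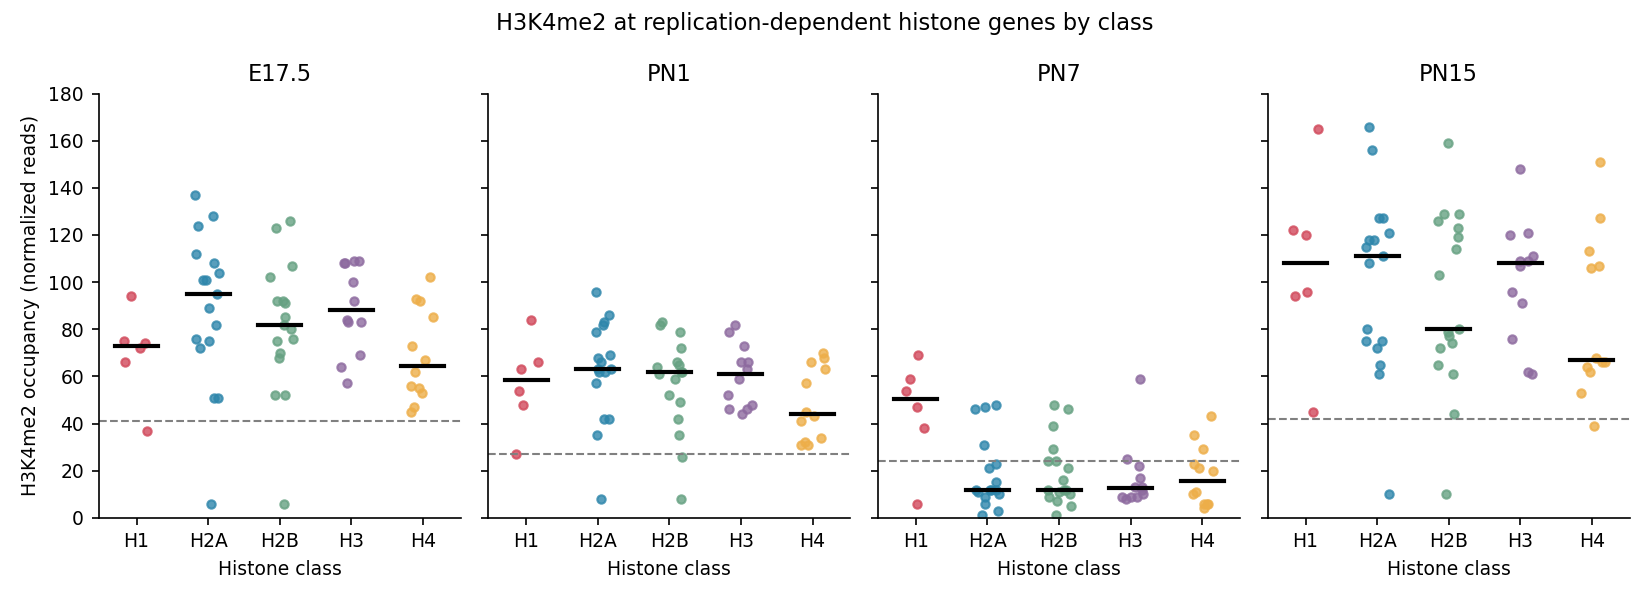
H3K4me2 occupancy (normalised reads) of each histone gene by class at the 4 stages, with the class median as a bar and the median of all 20045 symbols as a dashed line. At PN7 the H1 median is 50.5 and the medians of the core classes lie between 12 and 15.5, under the line at 24.

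The number of starts in a window went with the level. Genes with no other member's TSS in the window had a median H3K4me2 of 66 at E17.5 (17 genes), those with 1 other had 79, and those with 2 others had 102. Across the 64 genes Spearman's correlation of the E17.5 level with the CpG content of the window was 0.65, and it was 0.70 over 38 genes taken 1 per group of linked starts. These points share libraries and, within groups, reads, and the correlation is a description. H4 genes tended to lie alone, which was true of 9 of 12 against 17 of all 64. Class, crowding and CpG content moved together and their separate parts were not tested.

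At PN7 the core histone genes lost most of their H3K4me2 signal while the somatic H1 genes kept more of theirs. From PN1 to PN7, 49 of 64 genes fell at least 2-fold and none rose that far, on the scale log2(value + 1), against 36.8% of all symbols that fell and 4.09% that rose. The median change was -1.81 (log2) against -0.50 over all symbols. The fall over all symbols was smaller among those with more of the mark at PN1. Among the 9511 symbols with at least 30 at PN1, 10.2% fell at least 2-fold and the median change was -0.15, whereas 45 of the 60 histone genes in that range fell, with a median of -1.77. Of symbols in this range, 30.7% fell in the 3 groups of lowest GC content, where 3, 20 and 12 of the histone genes lay, with a median of -0.72, against 6.02% and -0.04 in the 7 other groups.

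Hist1h1c, which encodes a somatic linker histone, read 54 (40.6 to 70.5) at PN1 and 69 (53.7 to 87.3) at PN7. It was the only member whose value rose over this interval. Hist1h1a read 63 and 54, Hist1h1b 84 and 59, Hist1h1d 66 and 47, and Hist1h1e 48 and 38. None of these H1 genes reached a 2-fold fall. The largest was at Hist1h1b, with a ratio of 0.702 (0.495 to 0.992), followed by Hist1h1d with 0.712 (0.479 to 1.05).

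Core genes that share a window with an H1 start had values close to those of the H1 genes. Such windows share reads, so these are not separate measurements. These were Hist1h3a with 82 at PN1 and 59 at PN7, Hist1h4a with 68 and 43, and Hist1h2be, whose annotated transcript starts beside Hist1h1e, with 49 and 39. Of the other 55 core genes 48 fell at least 2-fold. The 7 that did not were Hist2h2ab, Hist2h2ac and Hist2h2be (79 to 83 at PN1, 47 to 48 at PN7), Hist2h4 (70 and 35), Hist3h2a and Hist3h2bb (82 and 79, then 46 each) and Hist4h4 (32 and 29). These 7 genes were singled out after their values were seen. By class, 14 of 17 H2A, 14 of 17 H2B, 11 of 12 H3 and 9 of 12 H4 genes fell, but 1 of 6 H1 genes, the testis form Hist1h1t. The windows of the 6 H1 genes were 93.6% to 96.6% single copy, against a median of 86.2% over all histone genes. Class and single-copy share thus moved together, and their separate parts were not tested.

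Features of the windows moved with this loss, and their part in it was not tested. Over all symbols the change from PN1 to PN7 followed GC content, from a median of -2.0 in the tenth of symbols with the lowest GC to 0.51 in the tenth with the highest. The histone windows were between 38.9% and 53.8% GC with a median of 44.8%, under the 47.7% of all symbols. In the range from 39.9% to 43.1% GC the 20 histone genes had a median change of -2.05 against -1.58 for all symbols, and from 44.9% to 46.3% the 11 histone genes had -1.86 against -0.62. Among the 64 histone genes themselves Spearman's correlation of the change was 0.10 with GC content and -0.01 with CpG content. The median of the histone genes was the lower in all 9 GC groups that held any, with 1 to 20 genes a group, and 52 of 58 core genes lay below the median of their group.

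Sequence copies went with the loss among the histone genes. Spearman's correlation of the change with the single-copy share of the window was 0.59 over 64 genes, and 0.55 over 38 genes taken 1 per group of linked starts. All 9 genes with under 70% single-copy words fell at least 2-fold, with a median of -2.68. The duplicated Hist1h2ao fell from 68 (52.8 to 86.2) to 3 (0.619 to 8.77) and stood at 111 (91.3 to 134) at PN15. The same share had a Spearman's correlation of 0.16 with the change from E17.5 to PN15. Genes in mostly single-copy windows fell too, 12 of 20 with at least 90% such words, against 36.8% of all symbols. Among the 12 were Hist1h2aa and Hist1h2ba, which share a window and each went from 8 to 1. Hist1h4d went from 41 to 6 and Hist1h4f from 31 to 6. Their windows had 42.2% and 39.6% GC, and all symbols of those GC groups had median changes of -1.58 and -2. The PN7 H3K4me2 library as a whole had 19.5% of entries at 0, against 0.36% to 2.52% in the other H3K4me2 libraries, although no histone gene was at 0 in it.

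**Figure D3:**
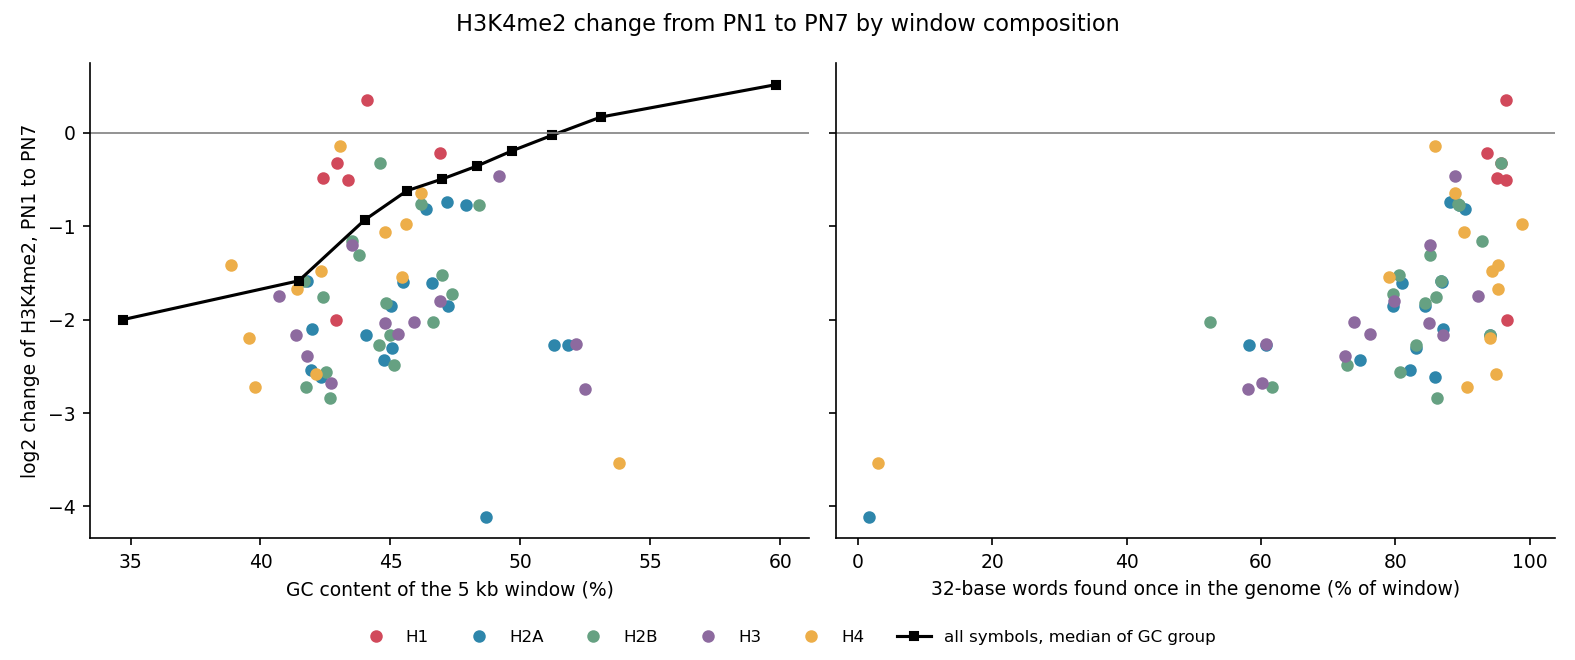
Change of H3K4me2 from PN1 to PN7 (log2 scale) at each histone gene, coloured by class, against the GC content of its 5 kb window (left, with the median of all symbols in 10 GC groups as black squares) and against the share of 32-base words found at no other place in the genome (right). Most core genes lie below the line of all symbols at their GC content, and Hist1h1a to Hist1h1e lie above it.

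By PN15 the mark was high again at most of these genes. From PN7 to PN15, 60 of 64 histone genes rose at least 2-fold, against 52.3% of all symbols, and none fell, against 2.06%. The median change was 2.49 against 1.0 over all symbols. From E17.5 to PN1 none rose and 3 fell, against 8.23% and 6.78% of all symbols. Those 3 were Hist1h2ak, Hist1h4k and Hist4h4, whose values went from 72 to 35, from 92 to 45 and from 67 to 32. None of the 3 falls reached 2-fold with a pseudocount of 5 or with libraries rescaled to the same median. The median change in that interval was -0.50 for the histone genes and -0.42 over all symbols, and it was 0.09 for the histone genes once libraries were rescaled to the same median over all symbols.

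Across the whole period 1 histone gene passed a 2-fold rise of H3K4me2 and none a fall, against 7.84% and 11.7% of all symbols. Among symbols with at least 30 at PN1 the shares were lower, 2.86% and 3.47%, beside 1 and 0 of 60 histone genes. The gene that rose was Hist1h1c, which went from 66 (51.0 to 84.0) at E17.5 to 165 (141 to 192) at PN15, a ratio of 2.5 (1.87 to 3.38). Next came the divergent pair Hist1h2ac and Hist1h2bc, with 89 and 92 at E17.5 and 156 and 159 at PN15. The median change of the 64 genes was 0.22 against 0.13 over all symbols, with 49 above 0 and 13 below. Among symbols with at least 30 at PN1 the order was the other way, with 0.21 for 60 histone genes and 0.24 for all 9511. The H1 genes had a median of 0.53, with Hist1h1a at 72 and then 120 and Hist1h1e at 74 and then 122, while Hist1h1b read 94 at both ends and Hist1h1d 75 and 96. The 20 genes in windows with at least 90% single-copy words had a median of 72 at PN15, also above the 42 of all symbols. The order of the genes was largely kept, with a Spearman's correlation of 0.66 between E17.5 and PN15 levels over 64 genes and 0.70 over 38 genes taken 1 per group of linked starts.

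The largest falls of H3K4me2 from E17.5 to PN15 were at the 3 Hist3 genes. Hist3h2ba went from 80 (63.4 to 99.6) through 66 and 29 to 44 (32 to 59.1), a ratio of 0.550 (0.372 to 0.804). Hist3h2a went from 128 (107 to 152) through 82 and 46 to 80 (63.4 to 99.6), a ratio of 0.625 (0.467 to 0.833). Hist3h2bb, whose window it shares and which is annotated as a pseudogene in this build, read 123, 79, 46 and 79. None of the 3 reached a 2-fold fall, and the windows were 89.4% to 92.9% single copy.

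The same 3 genes gained H3K27me3. Hist3h2ba read 10 (4.80 to 18.4), 8 (3.45 to 15.8), 84 (67 to 104) and 108 (88.6 to 130) from E17.5 to PN15, a ratio of 10.8 (5.65 to 23.2) over the period. Hist3h2a read 9 (4.12 to 17.1), 5 (1.62 to 11.7), 58 (44.0 to 75) and 88 (70.6 to 108), a ratio of 9.78 (4.92 to 22.1). Hist3h2bb read 10, 6, 57 and 85. The counting intervals of the early and late stages were far apart at these genes. The starts of Hist3h2a and Hist3h2bb are 173 bp apart, so the locus gives 2 separate windows, and both show the gain. H3K4me2 remained between 29 and 80 at the late stages, above the olfactory receptor level, so that both marks were measured in the same windows. In whole retina a mixture of cells with either mark and single cells with both cannot be told apart.

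**Figure D4:**
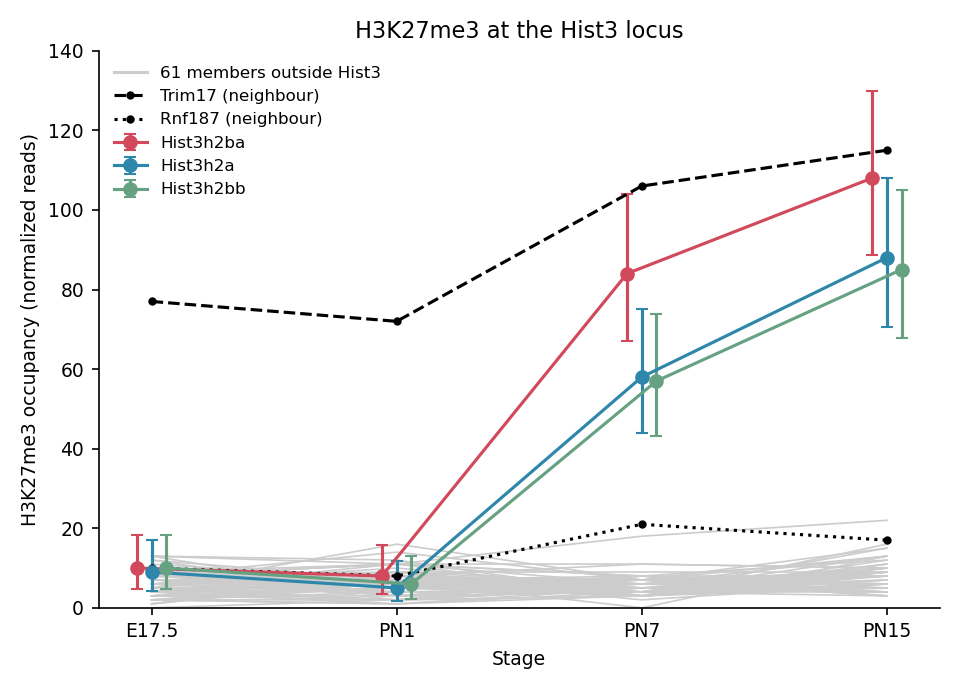
H3K27me3 occupancy (normalised reads) by stage at the 3 Hist3 genes, with exact 95% Poisson intervals that count 1 unit as 1 read, at the 61 other histone genes (grey) and at the neighbours Trim17 and Rnf187. The Hist3 genes rise from at most 10 at E17.5 to between 85 and 108 at PN15, while no other histone gene exceeds 22.

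No other histone gene came near these values. In the H3K27me3 libraries the 95th percentile of olfactory receptors was 21, 22, 22.7 and 29. None of the 64 genes exceeded it at E17.5 or PN1, and the 3 Hist3 genes alone did so at PN7 and PN15 (4 genes at each with vomeronasal receptors as the measure), against 24.3%, 24.8%, 24.3% and 19.3% of all symbols. The medians of the 61 genes outside Hist3 were 5, 7, 5 and 8 against 11, 10, 9 and 10 over all symbols. The highest of them at PN7 and PN15 was Hist1h1b, with 8 (3.45 to 15.8), 11, 18 and 22 (13.8 to 33.3) in stage order. At E17.5 and PN1 others exceeded it, with values up to 13 and 16. The median was under that of all symbols at every stage.

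At these low values the counts past 2-fold say little. From E17.5 to PN1, 13 histone genes rose and 8 fell (5.77% and 8.27% of all symbols). From PN1 to PN7, 12 rose and 13 fell (6.99% and 13.5%), and from PN7 to PN15, 22 rose and 3 fell (15% and 9.70%). From E17.5 to PN15, 21 rose and 1 fell (12.2% and 16.1%). The members' shares exceeded the background in several of these, but only 5, 7, 9 and 12 genes had a mean of at least 10 over the 2 libraries of the interval. The Hist3 genes had such a mean from PN1 to PN7 only through their PN7 values. Hist1h4f, second in the rise over the whole period, went from 0 through 2 and 8 to 8, but its counting intervals overlapped (0 to 3.69 at E17.5, 3.45 to 15.8 at PN15). The 3 largest falls of H3K27me3 were at Hist1h2bc, Hist1h1c and Hist1h2ac, from 9, 10 and 8 to 4, 5 and 4, within counting error.

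The Hist3 pattern was rare in the table. With limits set after these values were seen, at most 10 at E17.5 and PN1 and at least 50 at PN7 and PN15, 9 of 20045 symbols qualified, 3 of them the Hist3 genes. Among all symbols ordered by their rise of H3K27me3 from E17.5 to PN15, Hist3h2ba ranked 36, Hist3h2a 49 and Hist3h2bb 76. Both marks of the 64 genes together set the Hist3 genes at one corner, with H3K27me3 up and H3K4me2 down, and Hist1h1c at the opposite one.

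**Figure D5:**
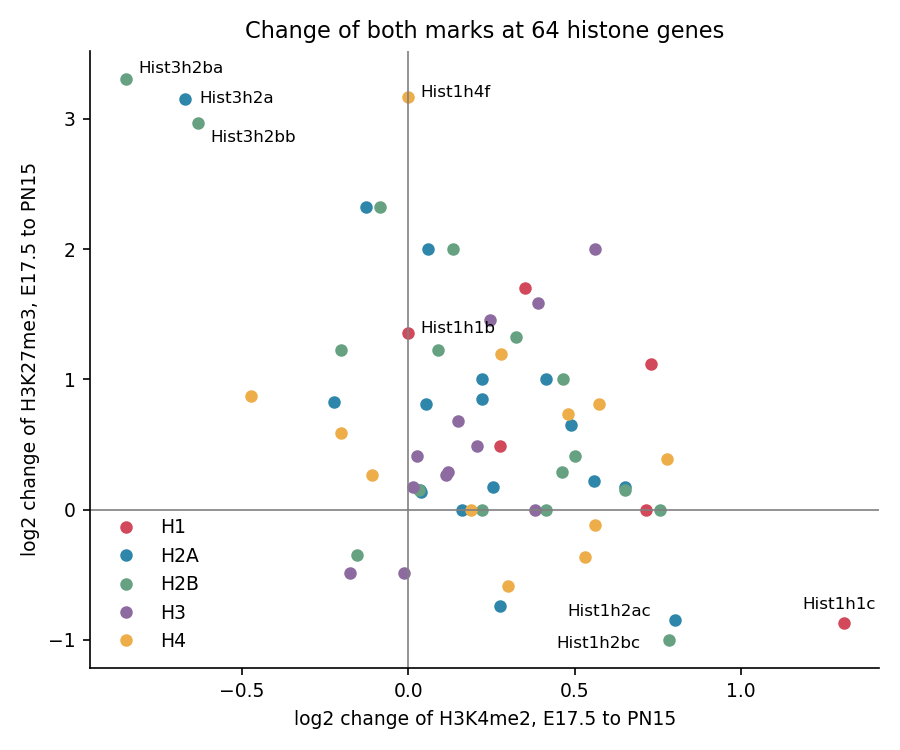
Change from E17.5 to PN15 on the log2(value + 1) scale for H3K4me2 (horizontal) and H3K27me3 (vertical) at the 64 histone genes, coloured by class. The Hist3 genes lie at the upper left with H3K27me3 changes of 2.97 to 3.31, and Hist1h1c at the lower right with an H3K4me2 change of 1.31; most other vertical positions rest on values under 15.

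Neighbours of the Hist3 genes differed among themselves. Trim17, a ubiquitin ligase gene of the tripartite motif family, had H3K27me3 at all stages, 77, 72, 106 and 115, with H3K4me2 of 14, 12, 3 and 16. One annotated Trim17 transcript starts at the first base of Hist3h2a, but the deposited Trim17 values differ from those of Hist3h2a and so come from another start. On the other side Rnf187, whose start lies 9995 bp from that of Hist3h2ba, read 10, 8, 21 and 17 for H3K27me3 and 74, 37, 40 and 96 for H3K4me2. Butr1, 30959 bp from it, had 36, 51, 60 and 48 for H3K27me3, and Trim11 had 7, 8, 4 and 10. The late gain was thus largest in the 2 histone windows, between a neighbour that was marked throughout and one with little H3K27me3.

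Genes near the Hist1 cluster differed more widely in H3K27me3. Prss16, a serine protease gene of the thymus 25902 bp from the start of Hist1h2ah, read 449, 639, 456 and 203 for H3K27me3 and had H3K4me2 between 5 and 10. Hfe, the haemochromatosis gene 12400 bp from Hist1h4c, had H3K4me2 of 32, 35, 10 and 37 and H3K27me3 of 17, 15, 14 and 10. Trim38 and Slc17a2, near Hist1h1a, were at or below 6 for H3K4me2. Near the Hist2 cluster Sf3b4, a splicing factor gene, read 79, 68, 31 and 96 for H3K4me2, a fall at PN7 like that of many histone genes, whereas Sv2a, a synaptic vesicle gene, read 43, 34, 54 and 84.

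The other genes of histone supply were examined as lists. Replication-independent histones (11 genes) had a median H3K4me2 of 40 at PN1, 54 at PN7 and 75 at PN15, against 62, 12.5 and 104.5 for the replication-dependent genes. From PN1 to PN7, 1 of the 11 fell at least 2-fold, H3f3b from 57 to 8, and 1 rose. Over all symbols 36.8% fell and 4.09% rose. H3f3a read 48 at both stages and H1f0, the replacement linker histone, 96 and 105. E17.5 values of the H2af genes were set aside. The 4 entries of H2afy had equal values in the other 7 libraries but read 39, 7, 2 and 34 for H3K4me2 at E17.5. Part of this column may be out of register with the gene names there, which was not tested. Of 2255 sets of entries of a symbol with equal values elsewhere, 2 differed by more than 3 in this library and none did in any of the others. Neither set belonged to a clustered histone gene, and the divergent H2A and H2B pairs agreed within 6 at E17.5. Nearest to the list's median at PN15 was H2afj, 3869 bp from Hist4h4, with 40, 41 and 75 from PN1 on, and the highest mean H3K27me3 over the 4 stages was at H2afy2 (10, 10, 13 and 17), although H1f0 exceeded it at E17.5 and PN1 with 13 and 20.

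Factors of histone message production (17 genes, such as Slbp and Npat) had median H3K4me2 of 57, 43, 42 and 76 from E17.5 to PN15. From PN1 to PN7, 1 fell and 2 rose at least 2-fold, against 36.8% and 4.09% of all symbols. Hinfp, which binds H4 promoters, read 57, 47, 27 and 76. Sympk, which encodes the symplekin scaffold of 3' end processing, had the highest H3K27me3 of the list, 217, 270, 202 and 92. Histone chaperones (13 genes) had 63, 46, 35 and 72, and 2 fell from PN1 to PN7. Nap1l1 read 53, 40, 35 and 72. Atrx had the highest mean H3K27me3 over the 4 stages, with values of 15 to 20, although Ssrp1 exceeded it at PN1 with 16. DNA replication genes (37), which like the histone genes serve S phase, had 65, 44, 28 and 57. From PN1 to PN7, 8 of them fell and none rose, against the same 36.8% and 4.09% of all symbols. Ccna2, cyclin A2, read 84, 53, 36 and 57, and Rrm2, a ribonucleotide reductase subunit, 109, 44, 39 and 47 with H3K27me3 of 26 to 37. Over the whole period 2 of the 37 fell at least 2-fold and none rose, against 11.7% and 7.84% of all symbols.

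Further lists frame the range. Ribosomal protein genes (83), most of them active in every cell, had a median H3K4me2 of 65, 45, 31 and 72. From PN1 to PN7, 20 of them fell at least 2-fold, against 36.8% of all symbols. Rpl22, nearest to the median at PN15, read 55, 44, 34 and 72, and Rpl3l had the highest H3K27me3, 56 to 72 up to PN7. The 4 germ-line histone variants had 5, 1 and 4 from PN1 on, where the testis pair of the Hist1 cluster read 8, 1 and 10; H1foo read 4, 6, 1 and 4, and Hils1 had the highest H3K27me3 with 13 to 25. The 4 genes of other tissues had 5, 6.5, 0.5 and 2.5, with Hbb-b1 at 4, 5, 0 and 4 and Myod1 highest in H3K27me3 with 423 at E17.5. The 7 rod markers all rose at least 2-fold from E17.5 to PN15, against 7.84% of all symbols, and Gnat1 went from 11 through 8 and 8 to 105. Vomeronasal receptors (298) had medians of 2, 4, 0 and 2, and among olfactory receptors Olfr10 read 3, 2, 0 and 2 while Olfr94 had the highest H3K27me3, 150 to 207 up to PN7. The median change from PN1 to PN7 was -2.03 for core histone genes without an H1 start in the window, 0.13 for replication-independent histones, -0.58 for DNA replication genes and -0.62 for ribosomal protein genes. Olfactory and vomeronasal receptors, with medians of 3 and 4 at PN1 and 0 at PN7, had -2.0 and -2.32.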

How the data were processed

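ChIP-Seq of H3K4me2 and H3K27me3 was done by the authors on retinas at 4 stages, with 1 library per mark and stage; 2 of 10 samples have no column in the table and were not analysed here. Per the labels and methods, reads were aligned to mm9 with Bowtie 0.12.4, reads mapping to several places were removed, and midpoints were set for fragments of 190 bp. The deposited values are the authors' occupancy score, reads within 2.5 kb of each RefSeq TSS scaled to total mapped reads and rounded; library depth is not in the table. Each label gives 2 catalogue numbers for its antibody: one is that of the other mark in the methods, the other matches. In the table, ribosomal protein genes had median H3K4me2 of 65 and H3K27me3 of 9 at E17.5, and Myod1, silent in retina, had 18 and 423.

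Values were read per entry and reduced to 20045 symbols by the largest sum. Changes are log2((later + 1)/(earlier + 1)), past 2-fold in each direction, beside the share of all symbols. Intervals are exact 95% Poisson intervals (Clopper-Pearson for ratios; scipy 1.17.1, Python 3.11.15). Positions, GC content and 32-base words came from the mm9 genome and its GENCODE annotation. The calculation of changes was tested on simulated data. The members and lists were chosen with earlier results of these data known. Named genes were all H1 genes, all genes outside Hist1, the testis forms, the extremes of each class and of change, and for each list the gene nearest its median and that highest in H3K27me3. Neighbouring genes, other core histone genes given at PN7, and H3f3a, H3f3b and H1f0 were named after their values were seen.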

Additional observations from a re-analysis of the deposited data

How the results depend on the processing

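No paired analysis was possible because each mark and stage has 1 library, so leaving out a replicate could not be done either. Depth is unknown, and H3K27me3 values of most histone genes lie under the olfactory receptor level, where whole-number steps alone can pass 2-fold. The cause of the shifts below was not tested, apart from smaller sets giving smaller counts (38 genes taken 1 per group of linked starts, 20 genes with at least 90% single-copy words).

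With libraries rescaled to the same median, the median H3K4me2 was 67.4 at E17.5 and 76.9 at PN1, the change from E17.5 to PN1 turned to 0.093 with 0 falls, the change from PN7 to PN15 was 1.79, and H3K27me3 falls were 7 (PN1 to PN7) and 0 (over the whole period). With a pseudocount of 5, H3K4me2 changes were -1.52 from PN1 to PN7 and 2.21 from PN7 to PN15 with 0 falls from E17.5 to PN1, and H3K27me3 rises and falls were 4 and 3 (E17.5 to PN1), 3 and 3 (PN1 to PN7), 7 and 0 (PN7 to PN15), and 11 and 0 (E17.5 to PN15). At 1.5-fold, H3K4me2 had 24 falls from E17.5 to PN1 and 9 rises and 3 falls from E17.5 to PN15, and H3K27me3 had 23 rises and 17 falls (E17.5 to PN1) and 21, 5 and 5 falls in the later comparisons. With a mean of at least 10, H3K27me3 rises and falls were 1 and 0, 3 and 1, 1 and 0, and 5 and 0, but a gene can pass this filter through the library in which it is high, as the Hist3 genes did from PN1 to PN7, so these counts are no independent check on the rises. With vomeronasal receptors as background, 2 genes passed for H3K27me3 at PN1 and 4 rather than 3 at PN7 and at PN15, the fourth being Hist1h1b.

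Chosen after seeing the data were the counts past 2-fold with 1 gene per group, the counts and changes in single-copy windows, and the changes without the Hist3 genes. With 1 gene per group, 29 fell from PN1 to PN7 and 35 rose from PN7 to PN15 in H3K4me2, and H3K27me3 rises were 6 (E17.5 to PN1), 8 (PN1 to PN7), 12 (PN7 to PN15) and 12 (E17.5 to PN15), with 5 falls from PN1 to PN7. In windows with at least 90% single-copy words, median H3K4me2 was 69, 47, 21.5 and 72, its falls were 1 and 12 in the first 2 intervals, its rises 17 from PN7 to PN15, and its changes -1.29 and 1.72. H3K27me3 there had a median of 7 at PN7, changes of 0.37 (PN1 to PN7) and 0.00 (PN7 to PN15), rises of 3, 6, 3 and 7 and falls of 3, 0, 1 and 0. With the 99th percentile of olfactory receptors, 62 rather than 64 genes passed for H3K4me2 at E17.5 and the other 7 counts were equal. With averaged entries every count was within 1.5 times the one given, H3K27me3 falls from PN1 to PN7 being 10 rather than 13. Without the Hist3 genes the median H3K27me3 change from PN1 to PN7 was -0.17 rather than 0.00, and the other 7 median changes kept their sign.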
